A study of Homo sapiens with 6 samples.

Results

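The open chromatin around 7 genes, the transcription factors TEAD1, TEAD2, TEAD3 and TEAD4 and their cofactors YAP1, WWTR1 and VGLL4, was examined in H1155 cells. Members were all open regions that overlap the span of such a gene or its flanks of 50 kb. There were 134 of them among the 149765 open regions of the genome, built from 551 of the 589440 peaks used. H1155 is an established human line of lung carcinoma, known as a large cell carcinoma with neuroendocrine features. Libraries were made by ATAC-seq, which uses a transposase to tag accessible DNA with adapters, from 3 biological replicates of control cells and 3 of cells expressing a chimera. The sample titles call the second group TA, and neither what TA stands for nor what the chimera or the control construct is appears in the labels. No factor of sex, age, dose or time is given in the labels, and both groups share the parental line. An open region is the union of peaks that share at least 1 bp in any of the 6 libraries, and distances are to its centre.

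The TEAD factors bind DNA through a TEA domain but activate transcription poorly alone. YAP1 and its paralog TAZ, the product of WWTR1, are coactivators without a DNA-binding domain, and the Hippo kinase cascade keeps them out of the nucleus by phosphorylation. VGLL4 binds TEAD factors through Tondu domains and competes with YAP1 and TAZ for them. Neuroendocrine lung carcinomas are known for frequent loss of YAP1 expression.

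The 7 genes differed in whether a peak was called at their 5′ end. For TEAD1, TEAD2, TEAD4 and VGLL4 a region called in all 6 libraries lay within 2 kb of the 5′ end. For YAP1 and WWTR1 no library had a peak there, and for TEAD3 a single control library had a weak one. Stretches upstream of RefSeq starts are shown for both kinds of gene. For WWTR1 they belong to the RefSeq starts 21.5 and 66.8 kb inside the outermost one, and not to the 5′ end at which peaks were sought. A peak named in a label is one within 2 kb of the 5′ end and need not cover the stretch shown. The TEAD2 region begins 0.605 kb beyond the span used here. The letters are the 250 bases before the start in RefSeq's GRCh38.p14 annotation, read 5′ to 3′ on the gene's strand, with the TEAD core GGAATG in capitals where a search of both strands found it. They show sequence only, because the deposited coordinates fitted hg19 better than that build. The windows of the 7 genes and every other position given here are in hg19, and no position was converted.

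YAP1, no peak at the 5′ end, chr11:102110197-102110446, plus strand: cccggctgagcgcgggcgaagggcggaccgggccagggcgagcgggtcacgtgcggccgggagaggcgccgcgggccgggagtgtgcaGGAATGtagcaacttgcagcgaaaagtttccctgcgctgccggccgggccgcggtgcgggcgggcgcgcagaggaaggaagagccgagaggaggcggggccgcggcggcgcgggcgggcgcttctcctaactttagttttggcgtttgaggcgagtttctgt

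WWTR1, start 186 kb from the 3′ end, chr3:149703274-149703523, minus strand: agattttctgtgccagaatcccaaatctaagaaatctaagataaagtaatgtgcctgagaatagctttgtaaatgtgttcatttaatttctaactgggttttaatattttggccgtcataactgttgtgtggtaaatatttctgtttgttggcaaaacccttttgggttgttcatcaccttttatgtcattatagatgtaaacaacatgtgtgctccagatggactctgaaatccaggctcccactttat

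WWTR1, start 141 kb from the 3′ end, chr3:149658026-149658275, minus strand: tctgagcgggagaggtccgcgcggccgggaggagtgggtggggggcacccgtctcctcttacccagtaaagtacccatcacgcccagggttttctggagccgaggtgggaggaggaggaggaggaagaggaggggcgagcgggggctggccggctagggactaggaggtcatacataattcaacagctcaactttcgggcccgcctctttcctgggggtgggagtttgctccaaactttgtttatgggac

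TEAD3, a peak in 1 library, chr6:35497080-35497329, minus strand: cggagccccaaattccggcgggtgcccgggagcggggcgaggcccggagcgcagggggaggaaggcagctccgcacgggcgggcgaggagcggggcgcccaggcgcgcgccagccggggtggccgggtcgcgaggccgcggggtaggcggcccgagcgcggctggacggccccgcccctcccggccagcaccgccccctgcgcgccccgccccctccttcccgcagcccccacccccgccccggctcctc

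TEAD2, peaks in all 6 libraries, chr19:49362417-49362666, minus strand: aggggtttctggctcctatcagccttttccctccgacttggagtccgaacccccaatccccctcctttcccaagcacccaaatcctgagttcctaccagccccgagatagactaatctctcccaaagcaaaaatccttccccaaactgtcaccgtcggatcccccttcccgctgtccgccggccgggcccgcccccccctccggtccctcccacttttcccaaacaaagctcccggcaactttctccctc

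VGLL4, peaks in all 6 libraries, chr3:11720540-11720789, minus strand: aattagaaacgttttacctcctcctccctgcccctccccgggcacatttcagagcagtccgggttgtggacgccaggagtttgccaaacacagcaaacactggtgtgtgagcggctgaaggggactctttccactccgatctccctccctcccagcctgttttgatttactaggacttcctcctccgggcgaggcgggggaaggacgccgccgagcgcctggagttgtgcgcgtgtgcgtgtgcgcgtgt

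The sequences of YAP1 and TEAD3, the genes without a shared peak at the 5′ end whose outermost start is shown, were rich in CpG. The YAP1 sequence had 72% G or C and 36 CpG dinucleotides, the 96th percentile among 35116 RefSeq promoters of 27305 genes, whose median was 11 CpG and 58% G or C. The TEAD3 sequence had 84% and 37 CpG, above both TEAD2 with 60% and 12 and VGLL4 with 60.4% and 18. That VGLL4 start lies 1.28 kb inside the outermost one. Another TEAD2 start, not shown, had 67.6% and 13 CpG, and the VGLL4 starts not shown had 1 to 12 CpG. The WWTR1 starts inside the gene differed from each other, with 35.2% and 1 CpG at 186 kb and 62% and 13 CpG at 141 kb from the 3′ end. The core GGAATG, which TEAD factors are known to prefer, occurred once, in the YAP1 sequence. It was present on either strand in 11.9% of all promoters of that length. The motif of the AP-1 factors, which often bind beside TEAD factors, was searched as TGANTCA on both strands and had no match in the 11 member sequences, against 6.57% of all promoters. The sequences of 5 of the 7 genes were matched in the RefSeq table by symbol, and those of TEAD1 and TEAD4 were not.

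Each library's peak list gives a fold, which is the pileup of fragments at the summit over the library's own local background, with 1 added to each. The lists held 85730 to 109321 used peaks in control and 94484 to 99654 in chimera libraries. Control 2 had the fewest and control 3 the most. Total reads were not used here, and the background pileup recovered from the lists, 2.53 to 3.05 in control and 2.74 to 3.77 in chimera libraries, stands in for depth. The lowest fold in any list was 1.67 and the lowest summit pileup 9. Where a library had no peak, its signal was under the threshold of the caller and need not have been 0. Because these are bulk samples, fewer cells with an open site and a less open site in each cell cannot be told apart. Nothing in the labels says more of the replicates than that they are biological, and p-values measure the spread between these libraries only. Markers of H1155 or of other cell types were not checked here, since no annotation of the build was used.

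**Figure D1:**
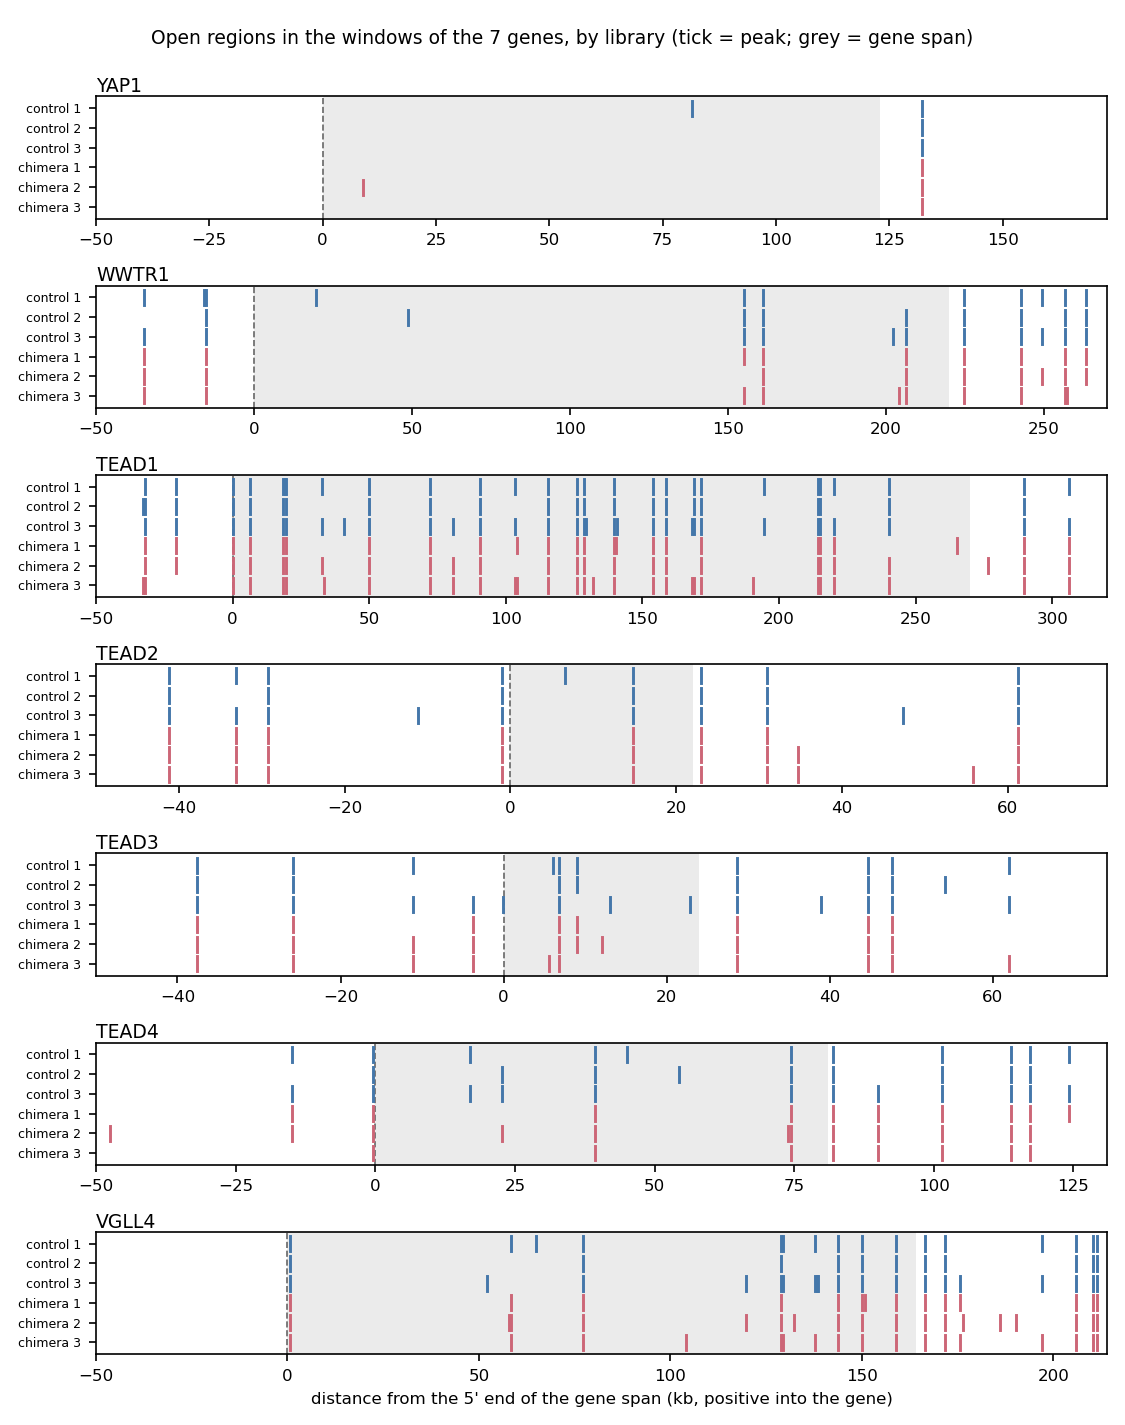
Peaks of the 6 libraries (rows; blue control, red chimera) along the windows of the 7 genes, by distance from the 5′ end of the gene span in kb, with the span in grey and the 5′ end as a dashed line. The YAP1 panel is almost empty and the WWTR1 panel is empty from the 5′ end to 155 kb apart from 2 peaks of single libraries. The TEAD1 panel has columns of 6 ticks from the 5′ end to 215 kb. From there to the end of the span it has only shorter columns, such as those at 220 and 240 kb.

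The density of shared open regions varied by gene. All 6 libraries shared 55 of the 134 regions (41.0%), against 37.8% of all regions of the genome, and 45 (33.6%) were called in 1 library alone, against 29.7%. Per 100 kb of window, regions in all 6 libraries numbered 0.448 for YAP1, 1.56 for WWTR1, 3.87 for TEAD4, 4.17 for VGLL4, 4.84 for TEAD3, 4.86 for TEAD1 and 5.74 for TEAD2. Both coactivator genes thus came below the 5 others in this order, which is of whole windows with their flanks. Across the genome, 13820 tiles of 200 kb held a peak of any library, and tiles without a peak were not counted. A median of 3 regions in all 6 libraries fell in each, with quartiles of 1 and 6, and 33.7% held 0 or 1. The single YAP1 region in a window of 223 kb is therefore a count that many tiles share. The WWTR1 density of 1.56 per 100 kb was close to the tile median of 3 per 200 kb. The 55 shared regions had a median width of 734 bp and a median fold, averaged over the 6 libraries, of 7.51, close to the 739 bp and 7.16 of all 56679 shared regions. Of them 27 lay in a gene span, 20 in the flank past the 3′ end and 8 in the upstream flank. The spans were not equally filled, since 16 of those 27 were in TEAD1 and 6 in VGLL4, with 2 in TEAD4, 1 each in WWTR1, TEAD2 and TEAD3 and 0 in YAP1. Several flanks hold other genes, so a flank region is not thereby a regulatory element of the named gene. The RefSeq annotation lists CFAP300 within 50 kb of YAP1, TM4SF4, COMMD2 and ANKUB1 near WWTR1, none near TEAD1, and SLC6A16, CD37, DKKL1 and KASH5 near TEAD2. It lists PPARD, FANCE, RPL10A and TULP1 near TEAD3, TULP3 and TSPAN9 near TEAD4, and ATG7 and TAMM41 near VGLL4.

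YAP1, the coactivator with the best known role in growth control, had 3 regions. A peak of 200 bp from 101989774 on chromosome 11, 8.87 kb into the gene, was called in chimera 2 alone with a fold of 4.28. A peak from 102062275, 81.4 kb into the gene, was called in control 1 alone with a fold of 4.53. No region called in more than 1 library lay between the start of the window at 101931000 and 102112906, a stretch of 182 kb that holds the whole span. The region in all 6 libraries, chr11:102112907-102113448, lay 9.18 kb past the 3′ end. Its folds were 8.49, 3.26 and 8.37 in control 1, 2 and 3 and 5.0, 6.0 and 5.47 in chimera 1, 2 and 3. The control values enclosed the chimera values, with control 2 the lowest of the 6. The difference in centred log2 fold, chimera minus control, was −0.06 ± 0.23 (SE, 95% interval −0.54 to 0.42, limma adjusted p = 0.955).

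WWTR1, which encodes TAZ, had 16 regions, and 5 of these were shared by all 6 libraries. A single one of those 5 lay in the span, chr3:149293247-149294388, 161 kb from the 5′ end. Its folds of 10.17, 8.04 and 8.31 in control and 8.10, 8.52 and 9.77 in chimera libraries overlapped. From 149300039 to 149469937, or 170 kb, no region was called in more than 1 library. That stretch reaches from 65.0 to 235 kb from the 3′ end and takes in the 5′ end of the span. RefSeq lists WWTR1 starts at 141 and 186 kb from the 3′ end in GRCh38.p14, and its span of 208 kb is 12.4 kb shorter than the span used here. The nearest region to the 5′ end was chr3:149469938-149470652, 15.3 kb upstream of it. It was open in all 6 libraries with folds of 12.68, 9.92 and 12.33 in control and 13.90, 11.43 and 10.98 in chimera libraries, at the 91.3th to 98.5th percentile of each library's peaks. The groups overlapped there (difference in centred log2 fold 0.16 ± 0.12, limma adjusted p = 0.663). The highest mean fold of the window was at chr3:149198152-149198533, 36.7 kb past the 3′ end. Its folds were 18.51, 12.25 and 15.44 in control and 9.51, 13.08 and 13.81 in chimera libraries. Control 1 was the highest and chimera 1 the lowest, and the other 4 libraries lay between 12.25 and 15.44 (difference −0.23 ± 0.13, limma adjusted p = 0.525).

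**Figure D2:**
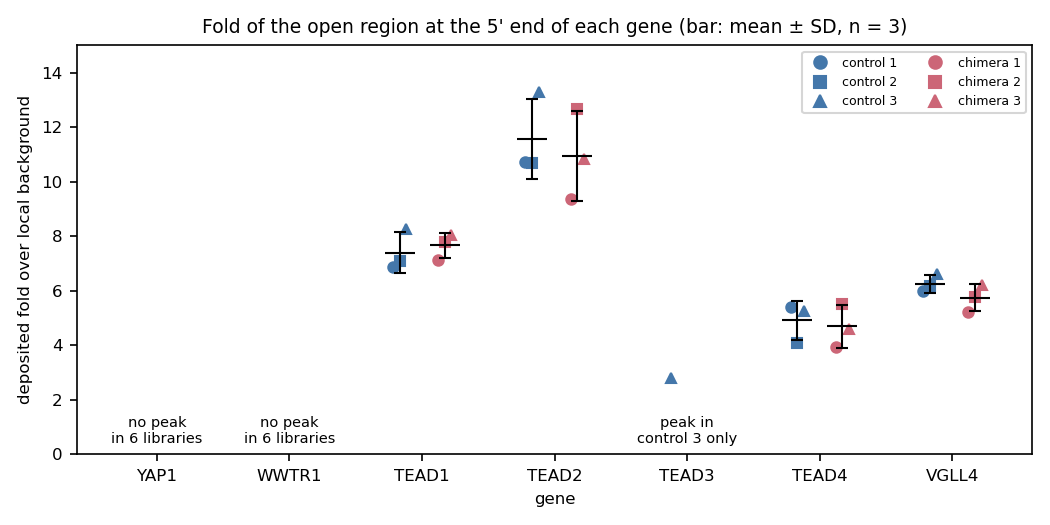
Deposited fold over local background (y axis) of the open region within 2 kb of the 5′ end of each gene (x axis), as points per library (blue control, red chimera; marker shape gives the replicate), with the mean and SD of 3 libraries in black. YAP1 and WWTR1 have no point, TEAD3 has 1 point at 2.80, and in the 4 other genes the control and chimera points overlap.

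Among the regions within 2 kb of the 5′ ends of the TEAD genes, the fold was highest by TEAD2 and lowest at TEAD3. TEAD2, the TEAD gene known for its use in early embryos and neural progenitors, had a region at chr19:49866605-49867357, which begins 0.605 kb beyond the span used here. RefSeq places the gene DKKL1 on that side, and the data do not tie the region to either gene. Folds were 10.73, 10.70 and 13.28 in control and 9.36, 12.66 and 10.82 in chimera libraries, at the 87.6th to 95.6th percentile. The means of 11.6 ± 1.48 and 10.9 ± 1.66 (SD, n = 3 each) differed by less than the replicate spread, and the difference in centred log2 fold was 0.02 ± 0.13 (95% interval −0.24 to 0.29, limma adjusted p = 0.965). TEAD1, widely expressed and known for its part in muscle and heart, had a region of 1390 bp over its 5′ end, chr11:12695317-12696706. Its folds were 6.86, 7.09 and 8.25 in control and 7.14, 7.79 and 8.05 in chimera libraries. Those values lay at the 62.5th to 80.6th percentile and overlapped between groups (0.16 ± 0.15, limma adjusted p = 0.748). TEAD4, known for its role in the trophectoderm, had a wide region of 1977 bp, chr12:3067584-3069560. Its folds were lower, 5.40, 4.08 and 5.24 in control and 3.94, 5.51 and 4.61 in chimera libraries, at the 25.9th to 51.0th percentile. Chimera 1 was the lowest and chimera 2 the highest of the 6, so the groups overlapped (0.04 ± 0.17, limma adjusted p = 0.960). TEAD3, known from placental expression, had a peak of 400 bp from 35464906 on chromosome 6 in control 3 alone. Its fold was 2.80, at the 3.17th percentile of that library's peaks, on a summit pileup of 27 and a −log10 q of 4.58. Control 3 is the library with the most peaks.

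TEAD1 had the most regions, 40, and 18 of these were shared by all 6 libraries. The strongest lay inside the gene, 72.4 kb from the 5′ end, at chr11:12768103-12768733. Its folds were 18.39, 11.47 and 17.57 in control and 15.08, 13.87 and 13.98 in chimera libraries, above the folds at the 5′ end in every library. The control values enclosed the chimera values (difference in centred log2 fold −0.01 ± 0.11, limma adjusted p = 0.990). The largest difference among the 18 was at chr11:12824228-12824677, 128 kb into the gene. Its folds were 4.34, 4.09 and 4.99 in control and 6.11, 5.28 and 4.81 in chimera libraries. Chimera 3 was below control 3 as deposited, and the groups did not overlap after centring on each library's median (0.38 ± 0.17, limma adjusted p = 0.423). Over the 18 regions the differences had a median of 0.09 and ran from −0.23 to 0.38.

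TEAD2 had 13 regions, 7 of them in all 6 libraries, and a single shared one inside its span of 22 kb. That region, chr19:49850867-49851470, had folds of 12.90, 8.84 and 15.12 in control and 9.24, 9.96 and 11.44 in chimera libraries, which overlapped. The largest fold difference of the window was at chr19:49834874-49835288, 8.92 kb past the 3′ end. Its folds were 12.28, 9.49 and 15.64 in control and 8.45, 8.65 and 8.54 in chimera libraries. All 3 control values were above all 3 chimera values. The difference of −0.41 ± 0.13 had a 95% interval of −0.68 to −0.14. It did not pass after adjustment over all regions tested (limma adjusted p = 0.227). TEAD3 had 18 regions, 6 of them in all 6 libraries. Its nearest shared region to the 5′ end was inside the gene at chr6:35457848-35458666, 6.74 kb in. Its folds were 4.05, 3.55 and 3.89 in control and 3.96, 4.22 and 3.58 in chimera libraries, within a narrow range. The strongest, chr6:35502052-35503162, lay 37.6 kb upstream. Its folds were 14.07, 11.56 and 12.60 in control and 11.11, 11.91 and 11.91 in chimera libraries (difference −0.02 ± 0.11, limma adjusted p = 0.970). The largest difference, at chr6:35419728-35420876 and 20.7 kb past the 3′ end, was 0.30 ± 0.15 (limma adjusted p = 0.462). Folds there were 7.37, 6.38 and 7.22 in control and 7.22, 8.82 and 8.03 in chimera libraries.

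TEAD4 had 16 regions, 7 of them in all 6 libraries. The strongest was chr12:3150668-3151115, 0.891 kb past the 3′ end. Its folds were 13.04, 8.26 and 13.10 in control and 11.02, 9.08 and 10.22 in chimera libraries, and control 2 was below every chimera library. The largest difference was inside the gene at chr12:3143268-3143664, 74.5 kb in. Its folds were 12.32, 11.53 and 11.63 in control and 12.16, 10.25 and 5.76 in chimera libraries. The difference of −0.29 ± 0.20 (limma adjusted p = 0.623) rested on chimera 3, and it was 0.009 without that library. In the TEAD4 span a further region of all 6 libraries, chr12:3107910-3108724 at 39.3 kb, had folds between 8.92 and 11.60.

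VGLL4, the competitor of the coactivators, had 28 regions, 11 of them in all 6 libraries. Its 5′ end was covered by the widest region of the 7 windows, 2203 bp, at chr3:11760161-11762363. The folds were 5.97, 6.16 and 6.61 in control and 5.23, 5.77 and 6.22 in chimera libraries. Means were 6.24 ± 0.329 and 5.74 ± 0.494 (SD, n = 3 each), and after centring the groups differed by −0.02 ± 0.17 (limma adjusted p = 0.984). The highest mean fold was in the span near its 3′ end, at chr3:11602676-11603732. Its folds were 10.32, 8.71 and 9.21 in control and 7.45, 7.49 and 7.48 in chimera libraries. All 3 control values were higher, and the difference of −0.22 ± 0.14 did not pass (95% interval −0.52 to 0.08, limma adjusted p = 0.603).

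The number of peaks in a window as deposited did not separate the groups for any of the 7 genes. YAP1 had 2, 1 and 1 peaks in control and 1, 2 and 1 in chimera libraries. WWTR1 had 11, 9 and 11 against 9, 9 and 10, with a difference in means of −1 (exact permutation test, two-sided, p = 0.4, where 3 libraries against 3 allow no p below 0.1). When weaker peaks, below a −log10 q of 10, were set aside, every chimera library had fewer WWTR1 peaks than every control library (difference −2, exact p = 0.1), as in 2.24% of tiles of 200 kb at that cut. With the 6 lists cut to equal length the WWTR1 difference was 0 (exact p = 1). TEAD1 had 32, 24 and 33 against 28, 30 and 34, a difference of 1 (exact p = 0.8). Control 2, the shortest list, was the lowest or tied for the lowest of the 6 in 6 windows, all but TEAD4. TEAD2 had 10, 9 and 12 peaks against 10, 10 and 12 (exact p = 1). TEAD3 had 10, 8 and 13 against 8, 10 and 11 (exact p = 1). TEAD4 had 13, 10 and 12 against 11, 13 and 9 (exact p = 0.8). VGLL4 had 21, 15 and 21 against 17, 20 and 18 (exact p = 0.8). Among the 13820 tiles of 200 kb with a peak, 2.72% had more peaks in every chimera than in every control library and 2.6% the reverse.

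No member region was open in all libraries of 1 group and in none of the other. Over the genome 0.621% of regions were called in 3 of 3 chimera and 0 of 3 control libraries, and 0.799% in the reverse pattern. With at least 2 of 3 libraries against 0, 2 member regions were gained (genome 2.78%) and 2 were lost (genome 3.85%). The gained regions were chr11:12799741-12800145 in TEAD1, with folds of 3.57 in chimera 1 and 2.94 in chimera 3, and chr19:49831203-49831485 past TEAD2, with 3.40 in chimera 2 and 3.45 in chimera 3. The lost regions were chr11:12890362-12890649 in TEAD1, with 3.68 in control 1 and 4.45 in control 3, and chr12:3085803-3086232 in TEAD4, with 4.23 and 3.70 in the same libraries. Neither lost region had a peak in control 2, the shortest list. These 4 were named after their values were seen, as were the 4 that follow.

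A peak in 3 chimera libraries and in 1 control library was the pattern of 3 regions (2.24%; genome 1.45%). In VGLL4, chr3:11703300-11703728 lay 58.5 kb from the 5′ end, with a fold of 4.81 in control 1 and 5.16, 7.49 and 7.76 in chimera libraries. Upstream of TEAD3 by 3.72 kb, chr6:35468446-35468987 had 4.86 in control 3 and 4.29, 3.40 and 4.42 in chimera libraries. Past the 3′ end of TEAD4 by 8.98 kb, chr12:3158504-3159466 had 4.95 in control 3 and 4.84, 4.37 and 4.68 in chimera libraries. By TEAD3 and TEAD4 the lone control value, that of control 3, was above every chimera value as deposited. Control libraries without a peak have no value there, so these folds give no direction between the groups. The reverse pattern had 1 region (0.746%; genome 1.71%), chr11:12864578-12864841 in TEAD1, with 3.89, 3.28 and 4.09 in control libraries and 3.85 in chimera 3.

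None of the 55 shared regions passed the test of fold. The test, limma on centred log2 fold over all 56679 regions in all 6 libraries, called 6 regions of the genome (0.0106%; 0.00706% higher and 0.00353% lower in chimera) against 0 of the 55 in either direction, and the lowest adjusted p among the 55 was 0.166. At an unadjusted p under 0.05 there were 7 of the 55 (12.7%), against 11.3% of all regions. Values of the groups did not overlap in 10 member regions with chimera higher (18.2%; genome 9.5%) and in 4 with chimera lower (7.27%; genome 6.99%). The differences were positive in 28 and negative in 27, with a median of 0.00 against 0.025 for all regions, and they ran from −0.52 to 0.59.

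**Figure D3:**
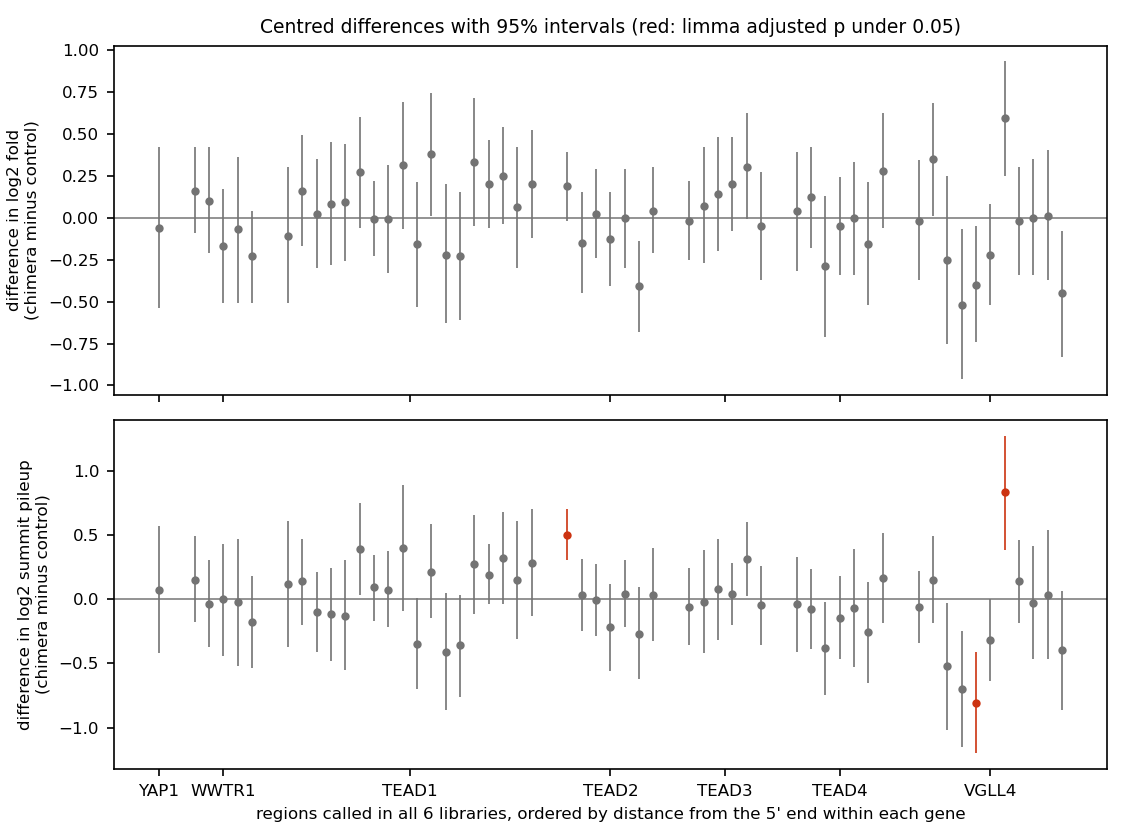
Differences between chimera and control libraries with 95% intervals (y axis) in the 55 regions called in all 6 libraries, grouped by gene and ordered by distance from the 5′ end (x axis); the upper panel shows centred log2 fold and the lower panel centred log2 summit pileup. The 3 red points of the lower panel passed the test, 1 by TEAD2 at 0.50 and 2 by VGLL4 at −0.81 and 0.83, and no point of the upper panel did.

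The pileup at the summit, which leaves out the local background, gave more calls, and this second measure was added after the data were seen. It passed in 1372 of 56679 regions (2.42%; 1.27% higher and 1.15% lower in chimera), and in 3 of the 55 (5.45%), 2 higher and 1 lower. Unadjusted, 9 of the 55 (16.4%) had a p under 0.05, against 14.9% of all. Groups did not overlap in 5 member regions in each direction (9.09% each; genome 9.29% higher and 9.81% lower). The median difference was −0.01, against −0.005 for all regions. Scaling by each library's background pileup in place of its median left 85 calls in the genome, 8 higher and 77 lower, and 0 among the 55.

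The region of highest mean fold in the TEAD2 window, chr19:49906574-49907716, was higher in chimera libraries by this measure. It lies 41.1 kb upstream of TEAD2, in the flank in which RefSeq lists DKKL1 and KASH5. Its summit pileups were 155, 131 and 201 in control and 210, 214 and 245 in chimera libraries. Every chimera value was above every control value. The means of 162 ± 35.6 and 223 ± 19.2 (SD, n = 3 each) corresponded to a centred ratio of 1.42, or a log2 difference of 0.50 ± 0.10 (95% interval 0.30 to 0.70, limma adjusted p = 0.00135). The deposited folds overlapped, with 13.15, 11.28 and 13.85 in control and 13.04, 13.94 and 13.40 in chimera libraries. After centring, every chimera fold was above every control fold. That difference was smaller and did not pass (0.19 ± 0.10, 95% interval −0.02 to 0.39, limma adjusted p = 0.491). The local background, as recovered and not scaled for depth, was higher in the chimera libraries there. It was 15.2, 14.4 and 17.4, against 10.9, 10.7 and 13.6 in the controls. Its part in the result was not tested.

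Toward the 3′ end of VGLL4, 1 region rose and another, in the gene, fell. The region chr3:11594905-11596050, 2.52 kb past the 3′ end, rose. Its pileups were 25, 20 and 31 in control and 40, 41 and 50 in chimera libraries, without overlap. The means of 25.3 ± 5.51 and 43.7 ± 5.51 (SD, n = 3 each) gave a centred ratio of 1.77 (log2 difference 0.83 ± 0.22, 95% interval 0.38 to 1.27, limma adjusted p = 0.0266). Here the fold pointed the same way, 3.96, 3.30 and 3.86 against 4.71, 5.61 and 5.19, also without overlap. Its difference of 0.59 ± 0.16 was the largest of the 55 and did not pass (95% interval 0.25 to 0.93, limma adjusted p = 0.166). The −log10 q was 7.41, 4.48 and 8.75 in control and 14.0, 17.3 and 19.2 in chimera libraries, so with peaks of at least 10 alone it counted as gained. The local background was 5.56, 5.36 and 7.30 in control and 7.70, 6.48 and 8.82 in chimera libraries. These values overlapped as recovered and were not scaled for depth.

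Inside VGLL4, chr3:11611562-11612612, 150 kb from the 5′ end, fell. Its pileups were 65, 48 and 75 in control and 38, 26 and 42 in chimera libraries, again without overlap. The means of 62.7 ± 13.7 and 35.3 ± 8.33 (SD, n = 3 each) gave a centred ratio of control to chimera of 1.75 (log2 difference −0.81 ± 0.20, 95% interval −1.20 to −0.41, limma adjusted p = 0.0125). The folds, 8.62, 6.64 and 7.68 against 5.74, 5.19 and 5.17, did not overlap either (−0.40 ± 0.16, limma adjusted p = 0.365). The local background, 6.66, 6.38 and 8.90 against 5.80, 4.20 and 7.32, overlapped as recovered and was not scaled for depth. The genome-wide background pileup was 2.53, 2.94 and 3.05 in control and 3.21, 2.74 and 3.77 in chimera libraries. The next region toward the 5′ end, chr3:11617895-11618628, had pileups of 58, 48 and 45 in control and 39, 31 and 23 in chimera libraries and did not pass (−0.70 ± 0.23, 95% interval −1.15 to −0.25, limma adjusted p = 0.0816). Its limma adjusted p was 0.0328 without control 3, where the difference was −0.95, and 0.439 without chimera 3, where it was −0.43.

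These 3 calls depend on settings. All of them were lost without centring, where the log2 differences of 0.48, 0.80 and −0.83 had adjusted p-values of 1, 0.587 and 0.484, and with scaling by each library's background pileup, where they were 0.30, 0.62 and −1.01 (limma adjusted p = 0.736, 0.489 and 0.106). The TEAD2 call held when any 1 library was left out (limma adjusted p = 0.00254 to 0.0124). The VGLL4 gain kept its size in such fits, with log2 differences of 0.80 to 0.85, and passed in none of them (limma adjusted p = 0.0561 to 0.102). The VGLL4 loss held in all but those without control 1 (limma adjusted p = 0.0774) and without chimera 2 (limma adjusted p = 0.104, log2 difference −0.64). Without a trend in limma's variance the gain past the 3′ end passed (adjusted p = 0.0322), the loss did not (0.0596) and the TEAD2 region did not (0.12).

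**Figure D4:**
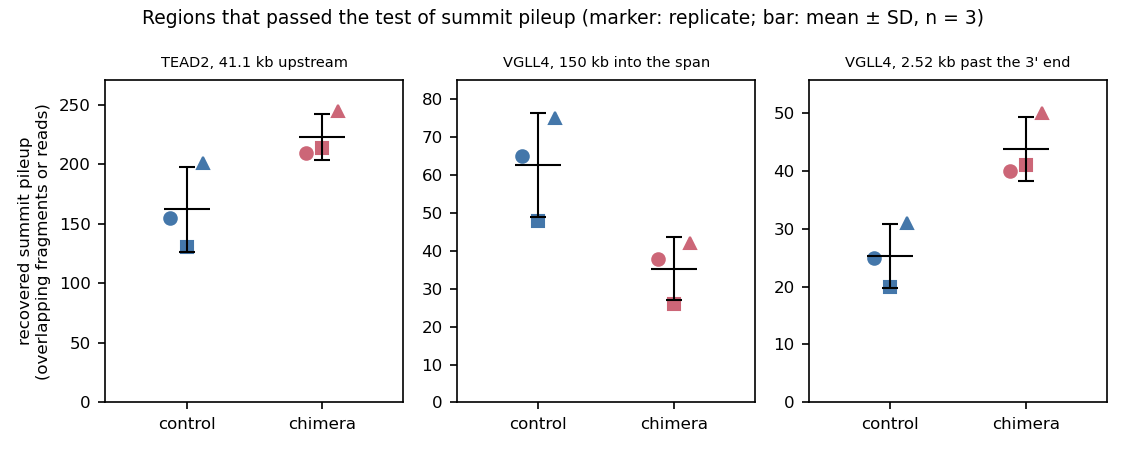
Recovered summit pileup (y axis, from 0, overlapping fragments or reads) of the 3 regions that passed, as points per library (blue control, red chimera; marker shape gives the replicate) with the mean and SD of 3 libraries in black. In each panel the points of the groups do not overlap, with chimera higher by TEAD2 and past the 3′ end of VGLL4 and lower inside VGLL4.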

How the data were processed

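ATAC-seq peak lists of 3 control and 3 chimera libraries of H1155 cells were used, 1 per library, which the file names mark as narrowPeak output of MACS2. Libraries were prepared by the Omni-ATAC protocol, per the labels' protocols. The submitters' processing notes name HOMER 4.9 and GRCh38 without a role. The aligner, the settings of MACS2 and whether reads were shifted at transposase cuts were not given in the sources used here. Per peak, the deposited fold of a peak is the authors' ratio of summit pileup to local background by MACS2's definition, which adds 1 to each. Deposited values of −log10 p and −log10 q are also the authors', computed within a library.

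The deposited positions fitted hg19 better than GRCh38: an open region of all 6 libraries lay within 2 kb of the 5′ end of 4 of the 7 genes in hg19 windows and of 0 of 7 at GRCh38.p14 positions. The windows used were given in hg19, with the strand of each gene. The regions counted here are those reported at the 5′ ends, so this fit is not separate from that result. No hg19 annotation was used, so other Hippo pathway genes and cell type markers were not analysed here.

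Peaks on chromosomes 1 to 22 and X were merged at an overlap of 1 bp or more, and 0.0168% of peaks, on other sequences, were left out. Of several peaks of a library in a region, the strongest counted. The log2 fold was centred on each library's median and tested with limma 3.58.1 (trend, R 4.3.3) over all 56679 regions in all 6 libraries, with Benjamini-Hochberg adjustment at 0.05. Each difference is chimera minus control, with its SE. Ratios of pileup are the back-transformed centred differences. Peaks per window were compared by a two-sided exact permutation test. After the data were seen, the same fit was run on the whole-number summit pileup, recovered by solving MACS2's Poisson p for the count that gives both deposited values (tolerance 0.005 on −log10 p) for over 99.9% of peaks. The fit was tested on simulated data. Values of an open region without a peak are missing and were not imputed.

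The text names, per window, the region within 2 kb of the 5′ end, the shared region of highest mean fold, that of largest fold difference, and any region that passed or that separated the groups by presence. Further regions were chosen after their values were seen. The 7 genes, the windows and these lists were chosen with earlier results of these data known. Replicate numbers showed no pairing in centred log2 fold. Deviations of same-numbered libraries from their group means correlated at −0.00547, −0.0592 and −0.0145. Whether same-numbered libraries were prepared together is not stated in the labels. Alternatives covered thresholds, merging, normalization, the variance trend, a replicate block and each library left out.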

Additional observations from a re-analysis of the deposited data

How the results depend on the processing

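No member region changed sides of the threshold in the test of fold under any alternative run, and peak counts per window separated the groups in 1 case of the alternatives that kept 6 libraries, WWTR1 with −log10 q of at least 10 (difference −2, exact p = 0.1, the smallest possible). The numbers of gained and lost member regions, 0 and 0, were 1 and 0 of 72 with −log10 q of at least 10 (genome 0.58% and 1%), 3 and 0 of 134 where peaks had to cover 50% of a region (2.24% and 0%; genome 0.771% and 0.996%), 2 and 2 with at least 2 of 3 libraries, and 0 to 2 for each with a library left out. Genome-wide, fold calls went from 6 to 0 without centring, with means over peaks, with −log10 q of at least 10, without trend and with cyclic loess (4980, 5819, 3877, 6278 and 6449 regions at an unadjusted p under 0.05 in limma, against 6394, where the 3877 come from 38069 regions tested and the others from 56679), to 4 with quantile normalization, and to 0 to 11 with a library left out. Without centring the median fold difference of all regions moved from 0.025 to −0.083. Pileup calls went from 1372 (720 higher, 652 lower) to 23 without centring, 340 without trend, 685 with −log10 q of at least 10, 646 to 1009 with a library left out, and 85 (8 higher, 77 lower, median −0.212) with scaling by background pileup. Member regions called higher and lower by pileup, 2 and 1, were 0 and 0 without centring and with background scaling, 1 and 0 without trend, 1 and 1 with −log10 q of at least 10, and 1 and 0 to 2 with a library left out. The causes were not tested.

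Differences in peaks per window turned sign, with −log10 q of at least 10, to −2 for TEAD1, 0.333 for TEAD3 and 0.333 for TEAD4. They turned to −0.333 for TEAD2 without flanks, to 0.667 for TEAD3 with lists of equal length and to 596 bp for VGLL4 in bp covered. With a library left out they ran from −1.83 to 2.67 for TEAD1, −0.333 to 1.17 for TEAD2, −1.83 to 0.667 for TEAD3, −1.67 to 0.333 for TEAD4 and −2.67 to 0.333 for VGLL4. Small differences in log2 fold also turned sign. The 5′ region of TEAD2 was at −0.083 without centring and −0.006 with cyclic loess, that of TEAD4 at −0.069 without centring and −0.062 with means over peaks, and that of VGLL4 at 0.176 with means over peaks. Means over peaks also moved the strongest TEAD3 region from −0.018 to −0.234 with no change of sign. With a library left out, the 5′ regions ran from −0.064 to 0.11 (TEAD2), −0.047 to 0.135 (TEAD4) and −0.092 to 0.089 (VGLL4). The strongest regions ran from −0.108 to 0.08 (TEAD1), −0.101 to 0.028 (TEAD3) and −0.154 to 0.067 (TEAD4), the region of largest difference of TEAD4 from −0.536 to 0.009, and the YAP1 region from −0.401 to 0.137.

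The replicate block, for numbers that showed no pairing in fold, gave 72 fold calls and 1328 pileup calls genome-wide. The counts of member calls were the same 0 and 3. For presence, at least 2 of 3 numbers had to show the change and none the reverse. By that rule 5 member regions were gained (3.73%, genome 4.24%) and 3 were lost (2.24%, genome 5.56%). The block's smallest exact p for peaks per window is 0.25. Depth is known only through the recovered pileup, and a fold near the calling threshold cannot show whether a region without a peak was closed.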
